A study of Mus musculus with 6 samples.

Results

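The genes described here encode the calcium channels of the cell surface and the channels, pump and pump inhibitor of the internal calcium store. They were taken by symbol from the deposited expression table, as Cacna1c, Cacna1h, Cacnb2, Ryr2, Ryr3, Itpr1, Itpr2, Itpr3, Atp2a2 and Pln, and all 10 were found among its 41064 genes. RNA came from mouse aortas, 3 libraries labelled wild type and 3 labelled knockout for Josd2, a deubiquitinase gene. Every mouse received angiotensin II, a peptide that constricts vessels, so neither group is untreated. The labels used here give no strain, age, sex, dose or duration, and no account of how Josd2 was deleted. No library is tied to its mouse, so n counts libraries here, which may be technical replicates. Josd2 itself had 30.1 ± 0.837 CPM (counts scaled to a common library size) in wild type libraries, against 20.98 ± 0.947 CPM in those labelled knockout (SD, n = 3 each), a log2 difference of -0.52 (SE 0.07, edgeR adjusted p = 0.000244), or -0.11 with libraries scaled by their totals (edgeR adjusted p = 0.231). The deleted stretch is not given, so this transcript does not check the genotype. The name "labelled knockout" is kept throughout, and each direction rests on that label.

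Smooth muscle cells of the vessel wall contract when calcium rises in the cytoplasm. Calcium enters through voltage-gated channels of the surface membrane and is released from the sarcoplasmic reticulum through IP3 receptors, opened by the messenger IP3 that angiotensin II and other constrictors raise, and through ryanodine receptors, opened by calcium itself. The sarcoplasmic pump encoded by Atp2a2 returns calcium to the store, and phospholamban, encoded by Pln, holds that pump back until it is phosphorylated.

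Promoter windows from RefSeq (build GRCm38.p6) were matched by symbol for 6 of the 10 genes, Cacna1c, Cacnb2, Itpr2, Itpr3, Pln and Ryr2. Of these, Pln had the largest fall and Itpr2 the largest rise between the groups, and Ryr2 encodes the ryanodine receptor with most transcript here, so their 250 bases before the annotated start are shown, each 5′ to 3′ on the gene's own strand. The windows are chr10:53337436-53337685 on the plus strand for Pln, chr6:146502224-146502473 on the minus strand for Itpr2 and chr13:12106946-12107195 on the minus strand for Ryr2. Capitals mark matches on either strand to any of 7 motifs.
Pln: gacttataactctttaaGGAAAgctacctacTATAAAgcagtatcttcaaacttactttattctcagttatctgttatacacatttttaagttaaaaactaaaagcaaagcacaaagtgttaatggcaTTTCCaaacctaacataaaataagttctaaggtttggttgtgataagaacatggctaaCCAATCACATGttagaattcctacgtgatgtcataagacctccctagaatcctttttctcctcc
Itpr2: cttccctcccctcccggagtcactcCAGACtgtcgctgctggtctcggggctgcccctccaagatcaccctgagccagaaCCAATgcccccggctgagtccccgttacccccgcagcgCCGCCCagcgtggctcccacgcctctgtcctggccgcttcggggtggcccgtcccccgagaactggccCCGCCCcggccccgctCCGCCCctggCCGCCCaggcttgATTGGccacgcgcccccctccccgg
Ryr2: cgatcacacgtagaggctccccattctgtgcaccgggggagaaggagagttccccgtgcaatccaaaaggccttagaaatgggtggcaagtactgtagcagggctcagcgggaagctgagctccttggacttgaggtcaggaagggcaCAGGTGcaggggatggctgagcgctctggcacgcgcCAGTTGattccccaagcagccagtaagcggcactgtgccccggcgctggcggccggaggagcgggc
The 3 windows differed in base composition, with 32.8% G and C in Pln, 74.4% in Itpr2 and 63.2% in Ryr2, against a median of 52.4% over all 32851 windows. Pln held 1 CCAAT box (CCAAT, in 33.9% of all windows), 1 TATA core (TATAAA, in 12.4%), 219 bases before the start, 2 NFAT cores (GGAAA, in 55.6%) and 1 E-box (CANNTG, in 66.2%), which touches the CCAAT box. Itpr2 held 4 GC boxes (GGGCGG, in 32.7% of all windows), 2 CCAAT boxes and 1 SMAD element (CAGAC, in 42.2%). Ryr2 held 2 E-boxes and none of the other motifs, and no CArG box, which 1.47% of all windows hold, was found in any window of the 6 genes. These matches describe letters and are no evidence of binding.

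Between the groups 9 of the 10 genes passed edgeR's quasi-likelihood test at an adjusted p under 0.05, 4 higher and 5 lower in the labelled knockouts, where 24.7% of the 20132 tested genes passed, 13.2% higher and 11.5% lower. All 10 were tested, and in 9 the CPM of the groups did not overlap, as in 41.1% of tested genes. Their median log2 fold change was -0.17, against -0.0031 over all tested genes. Log2 differences below are labelled knockout minus wild type. The largest falls were those of Ryr3 and Pln and the largest rise that of Itpr2, while Itpr3 did not pass. CPM here are counts scaled with TMM factors, which set the typical gene equal between libraries. Scaling by library totals instead raises the median gene by 0.41 on the log2 scale in the labelled knockouts, and by 0.16 when mitochondrially encoded genes are left out of the totals. Their transcripts took 36.2% of counts in each wild type library, against 23.8% to 23.9% in the labelled knockouts. With library totals 5 of the 10 genes passed higher and 3 lower. Changes are therefore given relative to the typical gene, and ratios between genes of a library, which no scaling alters, follow them.

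**Figure D1:**
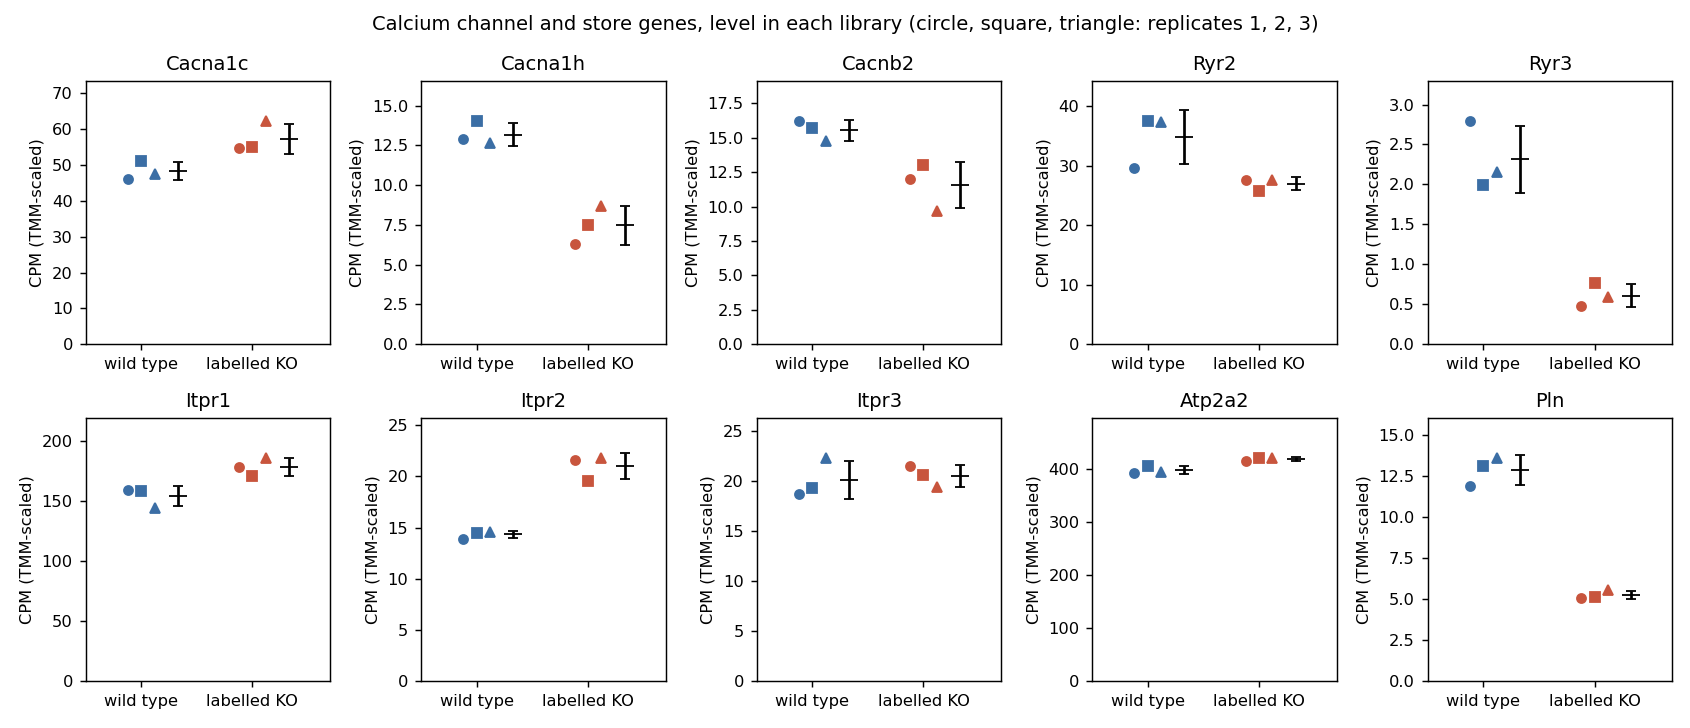
Level of each gene in every library, in CPM scaled with TMM factors, with wild type in blue and labelled knockout in red. Circles, squares and triangles are replicates 1, 2 and 3, and the bar beside each group is its mean and SD of 3 libraries. The groups overlap for Itpr3 only, and Pln lies at 11.9 to 13.6 CPM in wild type against 5.06 to 5.54 CPM in the labelled knockouts.

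The 3 genes of surface channels moved in different directions. Cacna1c, the pore of the L-type channel that carries most voltage-driven calcium entry into arterial smooth muscle, lies on chromosome 6 from 118587240 to 119196890 on the minus strand (positions here follow the deposited table and GRCm38). Its level was 46.2, 51.1 and 47.5 CPM in wild type against 54.6, 55.1 and 62.2 CPM in the labelled knockouts. Every labelled knockout library lay above every wild type library, by a log2 fold change of 0.25 (SE 0.06, 1.19-fold, edgeR adjusted p = 0.0167). The call was lost without wild type 1 (edgeR adjusted p = 0.0571) and without labelled knockout 3, which had the highest level (edgeR adjusted p = 0.0748).

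Cacna1h, the pore of a T-type channel that opens at more negative voltages, lies on chromosome 17 from 25374285 to 25433783 on the minus strand. It stood at 12.9, 14.02 and 12.6 CPM in wild type against 6.27, 7.47 and 8.71 CPM in the labelled knockouts. The groups were well apart, with the highest labelled knockout below the lowest wild type library, and the gene fell 1.76-fold (log2 difference -0.82, SE 0.14, edgeR adjusted p = 0.0012). In limma fits of the deposited FPKM, which are scaled to library totals, that call was lost (limma adjusted p = 0.074 and 0.0936 with 1 and 0.1 added). In edgeR with library totals the call was kept, at a log2 difference of -0.41 (edgeR adjusted p = 0.0301).

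Cacnb2 encodes an auxiliary beta subunit that brings L-type pores to the membrane, and lies on chromosome 2 from 14603088 to 14987908 on the plus strand. Its CPM were 16.2, 15.7 and 14.7 in wild type against 12.04, 12.99 and 9.70 in the labelled knockouts. No labelled knockout reached the wild type range, and the log2 fold change was -0.43 (SE 0.12, edgeR adjusted p = 0.0251). This is a call close to the threshold. It was lost in 9 of 15 alternatives, among them the fits without wild type 1, wild type 2, labelled knockout 1 or labelled knockout 3 (edgeR adjusted p of 0.0567 to 0.0959), and with library totals the difference was -0.02 (edgeR adjusted p = 0.933).

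Both ryanodine receptor genes were lower on the TMM scale. Ryr2, the form also found in heart muscle, lies on chromosome 13 from 11553102 to 12106945 on the minus strand. It measured 29.5, 37.4 and 37.4 CPM in wild type against 27.5, 25.7 and 27.6 CPM in the labelled knockouts. Wild type 1 lay near the labelled knockouts and apart from the other wild type libraries, so the wild type spread was wide. Ryr2 fell by 0.37 on the log2 scale (SE 0.09, 1.29-fold, edgeR adjusted p = 0.0134), but stood at 0.04 with library totals, in the opposite direction and without a call (edgeR adjusted p = 0.757). The call was also lost without wild type 2, wild type 3 or labelled knockout 2 (edgeR adjusted p of 0.0571 to 0.0663). It was lost as well with totals without mitochondrial genes (-0.21, edgeR adjusted p = 0.109). In limma fits of FPKM, Ryr2 stood at 0.02 and 0.04 with 1 and 0.1 added (limma adjusted p = 0.833 and 0.834). Direction and call were kept in 8 of 15 alternatives.

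Ryr3, a ryanodine receptor that is scarce in most muscles, lies on chromosome 2 from 112631355 to 113217087 on the minus strand. It had 154, 113 and 139 counts in wild type against 38, 67 and 49 in the labelled knockouts, in a unit of which about 4 may make a read pair. Scaled, these are 2.79, 1.99 and 2.16 CPM against 0.473, 0.768 and 0.588 CPM. The highest labelled knockout was below the lowest wild type library, and the gene fell 3.78-fold (log2 difference -1.92, SE 0.32, edgeR adjusted p = 0.00115). Of all tested genes, 95.9% had a smaller change in either direction. At this depth the size of the fall is known only roughly, with a 95% interval of -2.63 to -1.21 on the log2 scale. The call was lost in limma with 1 added to FPKM (-0.08, limma adjusted p = 0.0728), a scale that compresses so low a gene. Exons of the opposite-strand gene Aven overlap 4.83% of its exon bases.

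IP3 receptor genes rose or did not pass. Itpr1, the most abundant of the 3 in these aortas, lies on chromosome 6 from 108213096 to 108551109 on the plus strand and is the form best known from smooth muscle and cerebellar neurons. It measured 159, 158 and 144 CPM in wild type against 179, 171 and 186 CPM in the labelled knockouts. The groups did not overlap, and the rise was small, at a log2 fold change of 0.22 (SE 0.05, 1.16-fold, edgeR adjusted p = 0.00503).

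Itpr2, on chromosome 6 from 146108299 to 146502178 on the minus strand, encodes the IP3 receptor with the highest affinity for IP3. Its level was 13.9, 14.5 and 14.6 CPM in wild type against 21.6, 19.6 and 21.8 CPM in the labelled knockouts. Libraries of a group lay close together and the groups were far apart, with a 1.47-fold rise (log2 difference 0.55, SE 0.08, edgeR adjusted p = 0.000639). Itpr1 and Itpr2 kept their direction and passed in all 16 alternatives.

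Itpr3, the third IP3 receptor gene, lies on chromosome 17 from 27057304 to 27122223 on the plus strand and is the form best known from epithelial and secretory cells. It stood at 18.7, 19.3 and 22.3 CPM in wild type against 21.6, 20.7 and 19.4 CPM in the labelled knockouts. The groups overlapped fully, and the difference of 0.03 had a 95% interval of -0.17 to 0.23 on the log2 scale (edgeR adjusted p = 0.864). With library totals it passed upward at 0.44 (edgeR adjusted p = 0.00195).

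The store's pump and its inhibitor moved apart. Atp2a2, on chromosome 5 from 122453513 to 122502174 on the minus strand, was the most abundant of the 10 genes. Its level was 392, 406 and 394 CPM in wild type against 416, 421 and 420.2 CPM in the labelled knockouts. Every labelled knockout was higher, by only 1.05-fold (log2 difference 0.08, SE 0.02, edgeR adjusted p = 0.025), and 14.8% of tested genes had a smaller change in either direction. The call was lost in 6 of 16 alternatives, namely at a mean FPKM of at least 1, with counts divided by 4, and without wild type 1, wild type 3, labelled knockout 2 or labelled knockout 3 (edgeR adjusted p of 0.0526 to 0.0784).

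Pln lies on chromosome 10 from 53337667 to 53345987 on the plus strand. Its counts were 654, 746 and 876 in wild type against 407, 446 and 461 in the labelled knockouts, which scale to 11.9, 13.1 and 13.6 CPM against 5.06, 5.11 and 5.54 CPM. The 3 labelled knockouts lay close together and far below every wild type library, and Pln fell 2.46-fold (log2 difference -1.30, SE 0.12, edgeR adjusted p = 1.67e-05). It kept its direction and call in all 16 alternatives. Exons of opposite-strand genes, Cep85l and Gm47644, cover 64.7% of the Pln exon bases, and no use of strand is given in the sources used here, so reads of these genes cannot be told apart. Cep85l rose over the same libraries, from 9.47 ± 1.65 to 15.3 ± 0.686 CPM (log2 difference 0.69, SE 0.13, edgeR adjusted p = 0.00279), while Gm47644 had 0.571 and 0.421 CPM on average and did not pass.

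**Figure D2:**
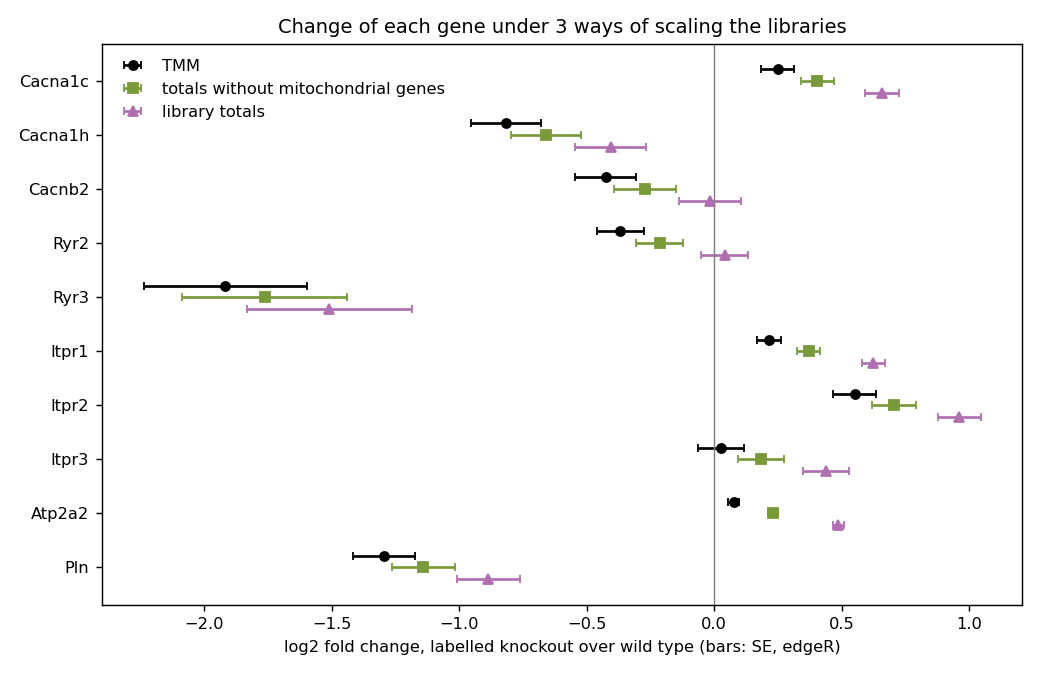
Log2 fold change of each gene, labelled knockout over wild type, with its SE from edgeR, under TMM (black circles), library totals without mitochondrially encoded genes (green squares) and library totals (purple triangles). Pln, Ryr3 and Cacna1h stay below 0 and Itpr2, Itpr1, Cacna1c and Atp2a2 above it, while with library totals Ryr2 goes from -0.37 to 0.04, Cacnb2 from -0.43 to -0.02 and Itpr3 from 0.03 to 0.44.

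Because a ratio of 2 genes within a library does not depend on how libraries are scaled, 5 such ratios of deposited FPKM (fragments per kilobase of exon, scaled to the library total) were compared. Pln stood at 6.65%, 7.11% and 7.58% of the Atp2a2 level in wild type against 2.67%, 2.67% and 2.90% in the labelled knockouts. The transcript of the pump's inhibitor was thus 2.59-fold scarcer relative to that of the pump, with no overlap of the groups. Ryr2 and Ryr3 together made 9.99%, 11.9% and 12.4% of the summed IP3 receptor level in wild type, and 7.19%, 7.17% and 7.16% in the labelled knockouts. That balance was lower in every labelled knockout, by 1.59-fold. Cacnb2 stood at 57.9%, 50.8% and 51.2% of Cacna1c in wild type against 36.4%, 38.9% and 25.7% in the labelled knockouts. The auxiliary subunit was 1.61-fold lower relative to its pore, although labelled knockout 3 lay apart from the others of its group. Ryr2 was 1.84% ± 0.222 of Atp2a2 in wild type against 1.35% ± 0.0605 in the labelled knockouts (SD, n = 3), again without overlap. The share of Itpr1 in the 3 IP3 receptors was 72.4% ± 2.56 and 72.5% ± 1.06 (SD, n = 3), with overlapping groups. In a two-sided exact permutation test the first 4 ratios gave p = 0.1, the smallest that 3 against 3 libraries allow, and 0.125 after Benjamini-Hochberg adjustment over the 5 ratios, and the Itpr1 share gave an exact p = 0.9.

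**Figure D3:**
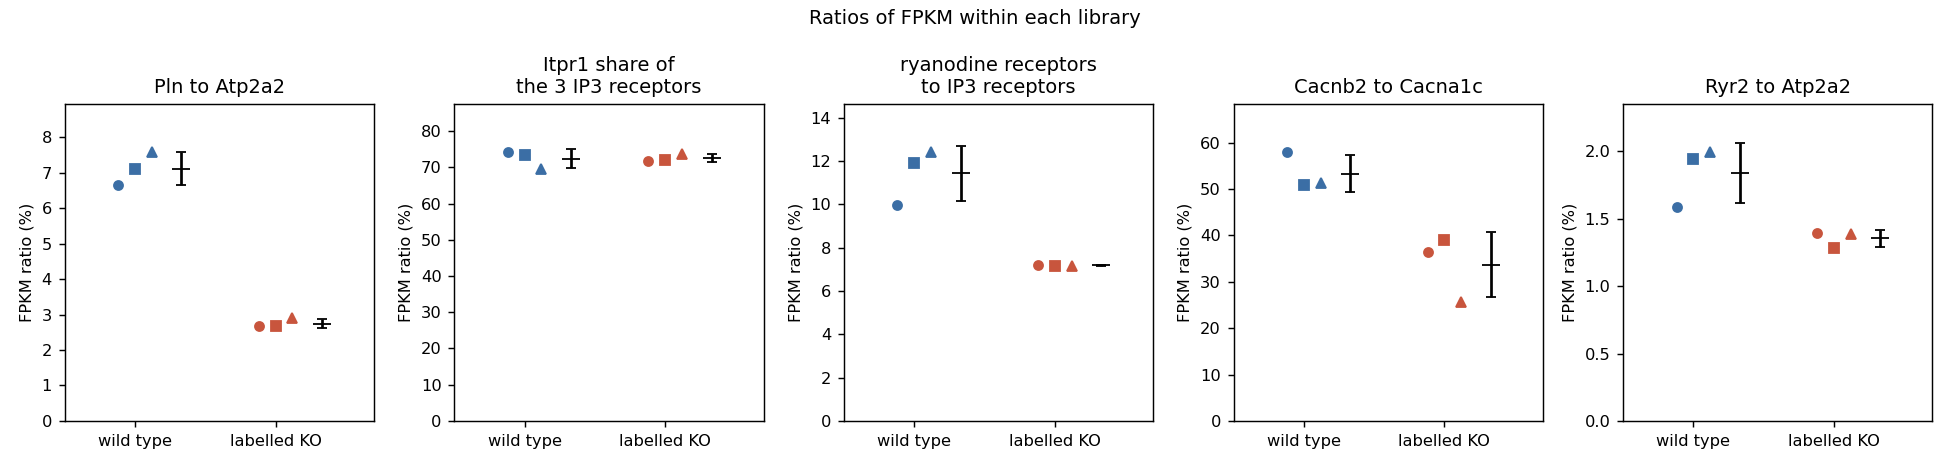
Ratio of FPKM within each library, in percent, for the 5 ratios compared, with wild type in blue, labelled knockout in red, and the mean and SD of 3 libraries beside each group. All ratios but the Itpr1 share separate the groups, and the ryanodine to IP3 receptor ratio lies between 7.16% and 7.19% in the labelled knockouts.

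The shares of each form within its family are given as a description, without a test. Itpr2 made 8.33% ± 0.340 of the IP3 receptor FPKM in wild type against 10.5% ± 0.300 in the labelled knockouts (SD, n = 3), with no overlap, and Itpr3 made 19.3% ± 2.24 and 17.0% ± 1.16. Ryr3 made 9.27% ± 2.79 of the 2 ryanodine receptors in wild type against 3.26% ± 0.908 in the labelled knockouts, so Ryr2 supplied at least 87.5% in every library. Ryr1, the skeletal muscle form, had 0.817 ± 0.413 CPM in wild type against 0.435 ± 0.217 CPM in the labelled knockouts and did not pass (edgeR adjusted p = 0.287).

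On the per-length FPKM scale in wild type, Atp2a2 stood first at 48.0 ± 0.855, followed by Itpr1 at 6.17 ± 0.327 and Pln at 3.41 ± 0.239 (SD, n = 3). Itpr3 at 1.64 ± 0.159 and Cacna1c at 1.62 ± 0.0841 did not differ beyond their spread. Ryr2 at 0.884 ± 0.115 overlapped both the gene above it, Cacna1h at 0.987 ± 0.0539, and the gene below it, Cacnb2 at 0.862 ± 0.0407, while Cacna1h and Cacnb2 did not overlap each other. Itpr2 followed at 0.709 ± 0.0189 and Ryr3 came last at 0.0883 ± 0.0165. In the labelled knockouts Cacna1c at 2.55 ± 0.194 stood above Pln at 1.85 ± 0.0959, the reverse of wild type, and Itpr2 at 1.38 ± 0.0838 stood above Cacna1h, Ryr2 and Cacnb2. The length behind the deposited FPKM follows all exons of a gene merged. For Ryr2 these span 28790 bases, 1.71 times its longest transcript in GENCODE M21, and for Cacnb2 2.63 times, which lowers their FPKM. Recomputed on longest transcripts, the first 3 ranks in wild type were unchanged and Cacnb2 moved from rank 8 to rank 5. In the labelled knockouts the order of Cacnb2 and Itpr2 turned on longest transcripts, with Cacnb2 at 2.65 (rank 4) and Itpr2 at 2.08 (rank 7). The recomputed values start from the length that counts and FPKM imply, 1.183 and 1.185 times the merged exons for these 2 genes. Their order, and not their size, is therefore to be set beside the deposited FPKM.

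**Figure D4:**
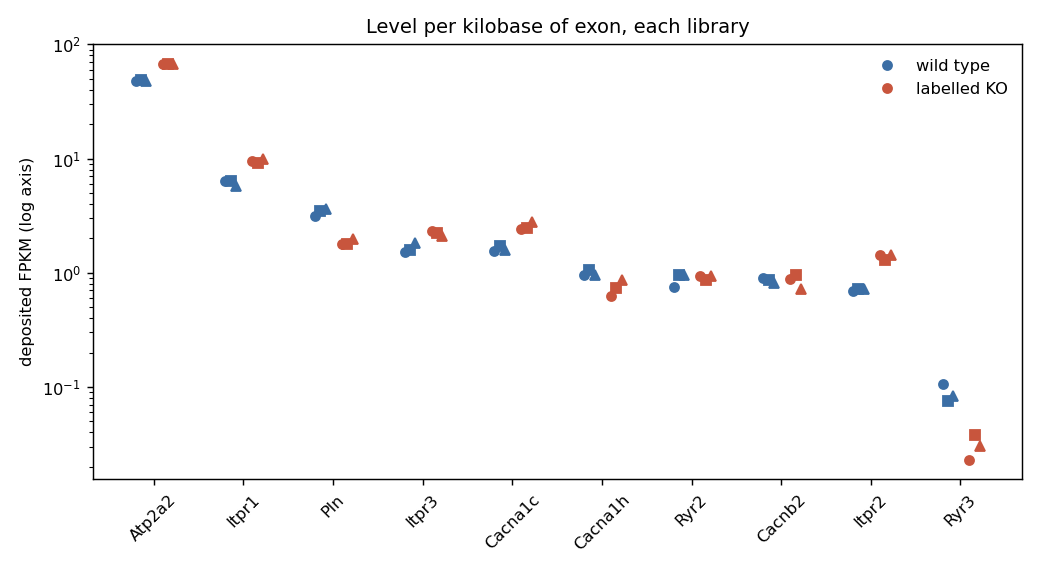
Deposited FPKM of each gene in every library on a log axis, ordered by the wild type mean, with wild type in blue and labelled knockout in red. Atp2a2 lies above all others, at 48.0 FPKM on average in wild type, and Ryr3 lies lowest, at 0.0883.

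The genes around these 10 were taken from 7 lists of calcium handling. Of 85 listed genes, 84 were in the table and 74 were tested, and 12 rose and 13 fell, with 49 not passing by edgeR, where 24.7% of all tested genes passed. Their median log2 fold change was -0.0045, and with library totals 47 passed higher and 2 lower.

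Among 15 tested other subunits of voltage-gated channels, 4 rose, 1 fell and 10 did not pass. Cacna1d, an L-type pore that opens at lower voltages than that of Cacna1c, rose from 2.95 ± 1.08 to 15.4 ± 1.14 CPM (log2 difference 2.37, SE 0.22, edgeR adjusted p = 1.5e-05). Cacna1g, a T-type pore like that of Cacna1h, rose from 3.82 ± 0.625 to 7.56 ± 0.675 CPM (log2 difference 0.98, SE 0.17, edgeR adjusted p = 0.00153), so Cacna1g and Cacna1h moved in opposite directions. Cacna2d3, an auxiliary alpha2delta subunit, rose from 0.798 ± 0.208 to 4.60 ± 1.21 CPM. The remaining calls, named after their values were seen, were Cacna1a, a neuronal P/Q-type pore, at 0.73, and Cacna2d1, the abundant alpha2delta subunit of muscle, at -0.21, with 89.9 ± 1.58 and 77.5 ± 4.44 CPM (edgeR adjusted p = 0.0128 and 0.00766). With library totals 9 of the 15 passed higher and none lower by edgeR.

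Of 18 tested partners of the release channels and proteins of the store, 2 rose, 5 fell and 11 did not pass, whereas with library totals 9 passed higher and none lower by edgeR. Calr, which encodes the calcium-binding calreticulin, went from 511 ± 7.53 to 412 ± 5.45 CPM (log2 difference -0.31, SE 0.02) and Asph, whose locus encodes junctin and junctate of the store membrane, from 157 ± 0.870 to 122 ± 0.624 CPM (-0.36, SE 0.03). Both stood higher with library totals, at 0.10 and 0.05, and exons of the opposite-strand genes Clvs1 and Gm25677 cover 14.7% of the Asph exon bases. Casq1, a calsequestrin that binds calcium inside the store, rose from 16.7 ± 2.13 to 35.4 ± 0.933 CPM (log2 difference 1.09, SE 0.09, edgeR adjusted p = 8.13e-06). The other calls, named after their values were seen, were Jph2, a junctophilin that ties the store to the surface membrane, at 0.10, Fkbp1a at -0.23, Hrc at -0.76 and Tmem38b at -0.37. Fkbp1a encodes a protein bound to release channels, Hrc a calcium-binding protein of the store and Tmem38b a potassium channel of the store membrane.

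Of 9 tested other pumps and regulators, 3 fell, none rose by edgeR and 6 did not pass, whereas with library totals 5 passed higher and none lower. Prkg1, the cGMP-dependent kinase that phosphorylates phospholamban, fell from 35.04 ± 2.98 to 23.8 ± 1.12 CPM (log2 difference -0.56, SE 0.08, edgeR adjusted p = 0.000303), a call lost with library totals (-0.15, edgeR adjusted p = 0.139). Camk2g, a calmodulin-dependent kinase gene, stood at -0.29 (SE 0.04), and at 0.12 with library totals. Atp2a1, the pump of skeletal muscle, had 1.23 ± 0.252 and 0.480 ± 0.101 CPM and a log2 difference of -1.35 (SE 0.39, edgeR adjusted p = 0.0282), and lost its call with library totals and with no filter (edgeR adjusted p = 0.072 and 0.0817), under the replicate block (edgeR adjusted p = 0.0594) and without wild type 2, wild type 3, labelled knockout 1 or labelled knockout 3 (edgeR adjusted p of 0.0508 to 0.0996). Exons of the opposite-strand gene Rabep2 cover 21.9% of its exon bases. Atp2a3, a pump found in endothelium and blood cells, had 75.7 ± 3.77 and 79.6 ± 0.681 CPM and did not pass (edgeR adjusted p = 0.303). Sln, the sarcolipin gene, was near the floor of 12 counts, at 0.271 ± 0.05001 and 0.0771 ± 0.0951 CPM.

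No gene of store-operated entry passed by edgeR among 6 tested, whereas with library totals 4 passed higher. Stim1, the calcium sensor of the store, had 52.5 ± 5.65 and 55.9 ± 2.10 CPM, and Orai1, the channel it opens, had 6.79 ± 0.621 and 6.26 ± 1.68 CPM. Of 7 tested genes of calcium extrusion, 2 rose and 1 fell, and with library totals 6 passed higher. Atp2b4, a plasma membrane calcium pump, rose from 149.5 ± 3.14 to 192 ± 2.74 CPM (log2 difference 0.36, SE 0.03, edgeR adjusted p = 7.27e-06), and Slc8a3, a scarce sodium-calcium exchanger, rose from 0.889 ± 0.212 to 3.79 ± 0.902 CPM. Atp2b1, another plasma membrane pump, stood at -0.25 (SE 0.05), or 0.16 with library totals, and Slc8a1, the main exchanger of heart and vessels, at 50.3 ± 2.60 and 49.3 ± 3.69 CPM, did not pass.

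Of 7 tested genes of mitochondrial calcium uptake, 1 rose and 2 fell, against 5 higher and 1 lower with library totals. Micu3, a regulator of the uniporter, rose from 2.68 ± 0.685 to 9.64 ± 1.80 CPM (log2 difference 1.84, SE 0.22), and Mcub, a subunit that dampens it, fell from 9.86 ± 0.585 to 5.18 ± 0.195 CPM (log2 difference -0.93, SE 0.13). Micu2 stood at -0.28, or 0.13 with library totals. Of 12 tested genes of IP3 production, 3 rose, 1 fell and 8 did not pass, against 9 higher and 1 lower with library totals. Plcb4, a phospholipase C coupled to G protein receptors, rose from 101 ± 5.002 to 197 ± 1.06 CPM (log2 difference 0.96, SE 0.04, edgeR adjusted p = 1.77e-08). Plcg1, another phospholipase C gene, rose by 0.38, and Plcg2, a phospholipase of blood cells, fell by 0.79. The remaining call, named after its value was seen, was Plce1, also a phospholipase C gene, at 0.26.

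**Figure D5:**
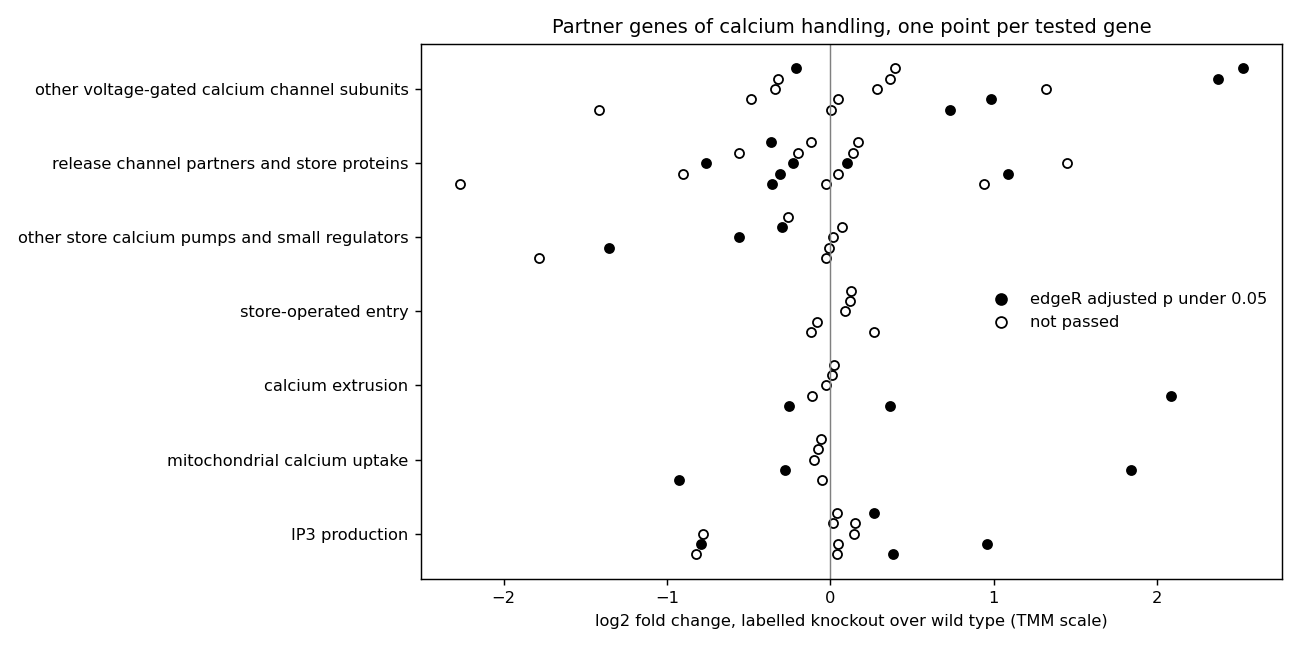
Log2 fold change, labelled knockout over wild type on the TMM scale, of the 74 tested partner genes, 1 point per gene in 7 lists. Filled points passed edgeR's test at an adjusted p under 0.05 and open points did not. The store-operated entry list has open points only, and the points farthest right are Cacna2d3, Cacna1d, Slc8a3 and Micu3.

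Whole aortas hold several cell types, and fewer cells of a type cannot be told apart from less RNA per cell. Smooth muscle markers were abundant, at 20658 to 20848 CPM summed over 8 genes in wild type libraries and 20187 to 20311 CPM in the labelled knockouts. Of these, Acta2 was lower, and Myh11, Cnn1, Smtn, Lmod1 and Synpo2 were higher, while with library totals all 8 passed higher. Endothelial markers were higher in 7 of 7 under either scaling, with sums of 411 to 425 against 753 to 759 CPM. Macrophage markers were lower in 4 of 5 (229 to 234 against 150 to 153 CPM), and in 3 of 5 with 1 higher by library totals. Of 5 fibroblast markers 4 were lower and Pdgfra higher (1679 to 1701 against 1481 to 1509 CPM), and with library totals 4 were higher. The protocol in the labels speaks of adipose tissue, but the labels give aorta. The 5 adipocyte markers summed to only 42.3 to 45.3 against 60.5 to 66.0 CPM, with Adipoq and Plin1 higher. Cidec and Ucp1 stood lower (log2 difference -0.24 each) and Lep higher, and these did not pass. Lymphocyte markers summed to 4.20 to 6.75 against 5.12 to 7.47 CPM, with Lck higher of 4. Ms4a1 and Cd79a stood lower (log2 difference -0.50 and -0.18) and Cd3e at 0.07, and none of them passed. Heart muscle also expresses Ryr2, Pln and Atp2a2, and its markers summed to 27.3 to 28.6 against 44.01 to 45.7 CPM. Of 9 tested by edgeR, Tnnt2, Actn2 and Myl7 passed higher and none passed lower. Most of the sum was Tnnt2 (means of 16.8 and 25.6 CPM) and Actn2 (4.54 and 10.7 CPM). Of those that did not pass, Myh7 and Myl2 stood lower (log2 difference -1.32 and -1.04) and Myh6, Myl3, Tnni3 and Mybpc3 higher. Of the atrial markers of heart muscle, Myl7 was at 0 counts in all wild type libraries and at 41, 65 and 30 in the labelled knockouts. Nppa had 0, 7 and 22 against 0, 2 and 0 counts and was not tested. Neuronal markers were lower in 3 of 7 tested (12.7 to 16.7 against 5.27 to 7.20 CPM), and Acta1 was the only skeletal muscle marker lower of 8 tested (10.9 to 11.2 against 5.75 to 7.20 CPM in sum). Most of the fall in that sum was Acta1, from 4.17 to 0.250 CPM on average. Of the 7 skeletal muscle markers that did not pass, Tnnt3 and Actn3 stood higher and the others lower. With library totals 1 skeletal muscle marker passed higher and 1 lower. The part of these shifts in the changes of the calcium genes was not tested.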

How the data were processed

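RNA of 6 aorta samples was sequenced, 3 per group, after poly(A) selection and paired-end library preparation, per the labels' protocols. Without saying what each was for, the submitters' processing notes list HISAT2 2.0, Bowtie 0.12.2 and the genome build mm8. Gene positions in the deposited table follow GRCm38 instead, as given below. The counting tool, annotation and strand setting were not given in the sources used here. One deposited table holds FPKM, which follow each library's total, and counts. The deposited counts are whole numbers, but 1091 to 1137 genes per library had a count of 4, against 792 to 867 at 3 and 472 to 519 at 5. They were therefore handled as estimated counts made by the authors. A read pair may be worth about 4 counts, which was not established. Rounding changed none. Totals were 63612353 to 75886761 per library, and the floor of 12 counts, which would be 3 such read pairs, corresponds to 0.137 to 0.218 CPM.

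The whole table was fitted with edgeR 4.0.16 (R 4.3.3), using filterByExpr, TMM and the quasi-likelihood test, with Benjamini-Hochberg adjustment over 20132 genes. Steps were tested on simulated data. Ratios were compared by exact permutation. Overlaps used GENCODE M21, BLAST+ 2.17.0 and GRCm38 coordinates, which equal those of the table for 6 of the 10 genes and lie within the same locus for the others. Alternatives were DESeq2 1.42.0, its size factors, library totals with and without mitochondrial genes, other filters, counts divided by 4, limma 3.58.1 on FPKM, the replicate block and each library left out. The design names 3 mice per group but no library is tied to its mouse, so p-values measure only the scatter of these samples, possibly a technical one.

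The 10 genes, the lists and the naming rule were chosen with earlier results of these data known. The rule names the 10 genes, Josd2, up to 3 called genes with the smallest p per list, and 8 further partners (Ryr1, Atp2a1, Atp2a3, Sln, Stim1, Orai1, Slc8a1 and Atp2b1).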

Additional observations from a re-analysis of the deposited data

How the results depend on the processing

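Pln, Itpr1 and Itpr2 kept direction and call in all 16 alternatives. Cacna1c and Atp2a2 kept their direction in all 16, and Ryr3, Cacna1h and Cacnb2 in all 15 that tested them, each with calls lost in some. The 4 ratios that separated the groups kept their direction as ratios of counts and with each library left out, where the log2 difference of Cacnb2 to Cacna1c ran from -0.80 to -0.50. Lengths of longest transcripts, an alternative chosen after seeing the data, cannot move a ratio of single genes, and gave -0.65 for ryanodine to IP3 receptors. With library totals, 3 of the 10 genes passed lower, 49 partner genes passed (47 higher, 2 lower), and 10193 of all genes (9425 higher, 768 lower). Totals without mitochondrial genes gave 3 of the 10 lower, 26 partners higher, and 4913 of all genes higher and 1356 lower. Limma on log2(FPKM + 1) gave 1 of the 10 lower, 46 partners (43 and 3) and 10314 genes (9447 and 867), and with 0.1 added 2 lower, 45 partners (42 and 3) and 10196 genes (9330 and 866). A mean FPKM of at least 1 left 6 of the 10 genes to test, of which 4 passed, 1 of them lower, and gave 6 partners higher.

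Signs turned with library totals for Ryr2 (0.041), Asph (0.054), Atp2b1 (0.16), Calr (0.10), Camk2g (0.12), Micu2 (0.13), Orai1 (0.29) and Slc8a1 (0.38), and in limma, in the same order, at 0.021, 0.047, 0.12, 0.10, 0.11, 0.12, 0.19 and 0.26 with 1 added, and at 0.043, 0.053, 0.15, 0.10, 0.11, 0.13, 0.25 and 0.36 with 0.1 added. Totals without mitochondrial genes turned Orai1 (0.037) and Slc8a1 (0.13), and no filter turned Slc8a1 (0.0021). Each of these 8 genes stood below 0 on the TMM scale by less than the 0.41 by which library totals shift the median gene.

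Leaving out each library gave 6 to 8 of the 10 genes, 2 to 4 higher and 3 to 4 lower, 22 to 26 partners and 3756 to 4458 of all genes, with fewer samples by construction. Itpr3 ranged from -0.017 to 0.11, Orai1 from -0.29 to 0.082 and Slc8a1 from -0.063 to 0.036. Same-numbered libraries correlated at 0.03, -0.02 and -0.01 in their deviations from the group mean, and not every library correlated best with its own number. With 3 libraries per group such a check cannot decide whether replicate numbers pair the samples. The replicate block gave 9 of the 10 genes, 24 partners and 4560 of all genes. Among the 10 genes Ryr3 had the fewest counts, at 38 to 67 in the labelled knockouts. Of the partners named, Sln, Ryr1 and Atp2a1 had wider errors than Ryr3, with SE of 1.20, 0.56 and 0.39 against 0.32.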
